A study of Caenorhabditis elegans with 24 samples.

Results

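The subject is 54 genes, of 46756 in the gene count table, that encode the proton pump of the lysosome, its proteases and a few of its membrane proteins in *Caenorhabditis elegans*. They comprised every gene whose name in the WBcel235 annotation starts with *vha-*, *asp-*, *cpr-* or *lmp-*, together with *unc-32*, *cpl-1*, *cpz-1*, *laat-1*, *ncr-1*, *cup-5* and *scav-3*. By role these were 21 pump genes, 17 aspartyl protease genes, 10 cysteine protease genes and 6 membrane protein genes. The rule for a member used its name and known role and no measured value, although it was set with earlier results of these data known. A filter on low counts, a mean of 10 or more per library, left 46 of them for testing, namely all 21 pump genes, 10 aspartyl protease genes, 9 cysteine protease genes and all 6 membrane protein genes.

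The vacuolar H+-ATPase, or V-ATPase, spends ATP in a cytosolic V1 sector to turn a ring of proteolipids in a membrane-embedded V0 sector, and each turn carries protons into the organelle. The acid lumen activates aspartyl proteases of the cathepsin D and E kind and cysteine proteases of the cathepsin B, L and Z kinds, which digest proteins delivered by endocytosis and autophagy. Many of these genes are known targets of TFEB in mammals, the transcription factor whose worm counterpart is HLH-30. In *C. elegans* the intestine is rich in lysosomes and also releases proteases into its lumen to digest food.

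RNA was sequenced from whole animals of 3 genotypes after 3 h at 37°C (heat stress) or at 20°C (control conditions) on day 1 of adulthood. Neuronal HLH-30/TFEB rescued animals (strain LRL147) carried *hlh-30(tm1978)* and a transgene, *rab-3p::HLH-30::GFP*, in which the pan-neuronal *rab-3* promoter drives HLH-30 fused to GFP. *hlh-30(tm1978)* mutants (LRL31) carried the same loss of function allele without the transgene, and wildtype animals were N2 (Bristol). All animals were grown on *E. coli* OP50, each library came from a pool of up to about 12000 worms, and the rescue is represented by 1 transgenic strain, so what belongs to the transgene and what belongs to that strain cannot be told apart. Each group had 4 libraries except wildtype at 20°C, which had 3 because the file given for its replicate 1 held the same count as wildtype replicate 4 at 37°C in each of the 46756 genes and was left out.

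The 23 libraries fell into 2 classes of depth. Between 11207383 and 15845829 counts were assigned to genes in 17 libraries and between 23025013 and 28091186 in 6, of which 3 were wildtype libraries at 37°C and none was a wildtype library at 20°C. Transcripts of *hlh-30* itself were at 24.4 to 50.9 CPM at 37°C and 57.4 to 117 CPM at 20°C in rescued animals, at 4.19 to 7.88 and 8.13 to 16.0 CPM in mutants, and at 15.5 to 20.5 and 39.9 to 73.8 CPM in wildtype animals at the same temperatures. CPM here are the counts of a gene relative to the TMM-scaled depth of its library, and reads of the transgene and of the gene's own locus cannot be told apart. At each temperature the mutant libraries were below all others.

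Heat stress lowered the transcripts of every protease gene tested in wildtype animals and mutants, and of most in rescued animals, while the pump genes split by subunit. In rescued animals 22 of the 46 genes fell at 37°C and 2 rose (edgeR quasi-likelihood test, adjusted p under 0.05). In mutants 32 fell and 2 rose, and in wildtype animals 33 fell and 1 rose. Of all 13482 genes tested, 8.72% fell and 11.7% rose in rescued animals, 16.8% fell and 21.3% rose in mutants, and 17.1% fell and 15.0% rose in wildtype animals. The median log2 fold change of the 46 genes was -0.58 in rescued animals, -1.10 in mutants and -1.23 in wildtype animals, beside 0.0063, 0.038 and 0.0089 over all genes tested in the same order.

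**Figure D1:**
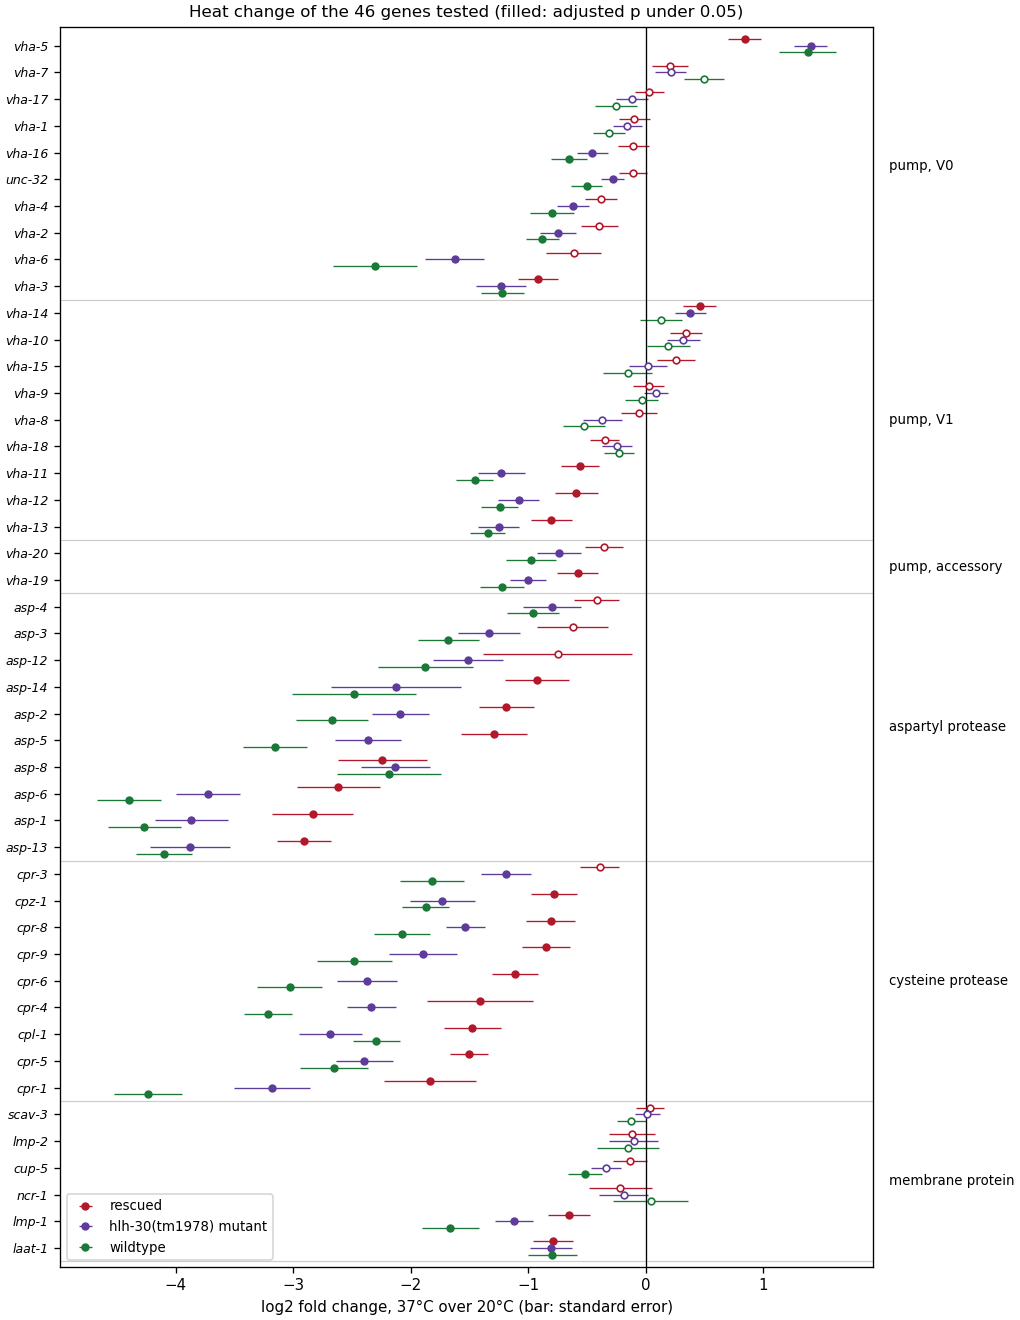
Log2 fold change at 37°C over 20°C (horizontal axis) of the 46 genes tested, grouped by role, in rescued animals, *hlh-30(tm1978)* mutants and wildtype animals. Bars are standard errors and filled points have an adjusted p under 0.05. The 19 protease genes all lie left of 0 in the 3 genotypes, and the pump genes lie on both sides.

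In every library at 20°C most of the counts on the 54 genes fell on the proteases, whereas at 37°C the proteases held less than the other members together in all mutant libraries and in wildtype replicate 4. Together the 27 protease genes took 0.649 to 0.824% of all counts at 37°C, against 1.33 to 3.06% at 20°C, in rescued animals. The corresponding shares were 0.197 to 0.3604% against 1.12 to 2.12% in mutants and 0.269 to 0.367% against 1.66 to 2.62% in wildtype animals. No library at 37°C reached the lowest library of its own genotype at 20°C. Among the 19 protease genes tested, 15 fell in rescued animals (median log2 fold change -1.19), 19 in mutants (-2.13) and 19 in wildtype animals (-2.48), and none rose in any genotype.

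The aspartyl proteases with the largest losses were *asp-6*, *asp-1* and *asp-13*. *asp-1* is known as an intestinal protease, and the other 2 belong to the same family by sequence. *asp-6* had 445, 285, 315 and 246 CPM in the rescued libraries at 37°C, against 1270, 1658, 1217 and 4006 CPM at 20°C (log2 fold change -2.62 ± 0.35, adjusted p = 0.000268). In mutants it had 92.5, 61.8, 110.2 and 105 CPM at 37°C, against 767, 1037, 1809 and 1290 CPM at 20°C (-3.73 ± 0.27, adjusted p = 1.87e-06). In wildtype animals it had 105, 101, 136 and 93.7 CPM at 37°C, against 1624, 1907 and 3334 CPM at 20°C (-4.40 ± 0.27, adjusted p = 4.95e-05). The temperatures did not overlap in any genotype, and the fitted loss amounted to 6.14-fold in rescued animals, 13.3-fold in mutants and 21.1-fold in wildtype animals. Tested between genotypes, these heat changes did not differ past the threshold (edgeR, 1.73, adjusted p = 0.0524 between rescued and wildtype animals). The value after ± is the standard error of the fit, except after a share in percent, where it is the standard deviation between libraries.

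*asp-1* and *asp-13* kept the same arrangement. *asp-1* had 551, 409, 387 and 305 CPM in rescued animals at 37°C, against 1772, 2600, 1944 and 5814 CPM at 20°C (-2.83 ± 0.35, adjusted p = 0.000126). The mutant libraries held 144, 63.3, 131 and 153 CPM at 37°C, against 1313, 1324, 2642 and 1886 CPM at 20°C (-3.87 ± 0.31, adjusted p = 4.30e-06). The wildtype libraries held 129.8, 121, 174 and 92.9 CPM at 37°C, against 1815, 1951 and 3681 CPM at 20°C (-4.27 ± 0.31, adjusted p = 8.40e-05). All rescued libraries at 37°C were above all mutant and wildtype libraries at 37°C, and all were far below those at 20°C. *asp-13* had 103, 96.8, 106 and 92.6 CPM in rescued animals at 37°C, against 513, 783, 587 and 1195 CPM at 20°C (-2.91 ± 0.23, adjusted p = 4.11e-06). It had 29.1, 14.96, 26.1 and 21.9 CPM in mutants at 37°C, against 228, 209, 599.7 and 324 CPM at 20°C (-3.88 ± 0.34, adjusted p = 7.95e-06), and 17.5, 17.9, 25.96 and 15.5 CPM in wildtype animals at 37°C, against 246, 326 and 412 CPM at 20°C (-4.10 ± 0.24, adjusted p = 4.92e-05).

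**Figure D2:**
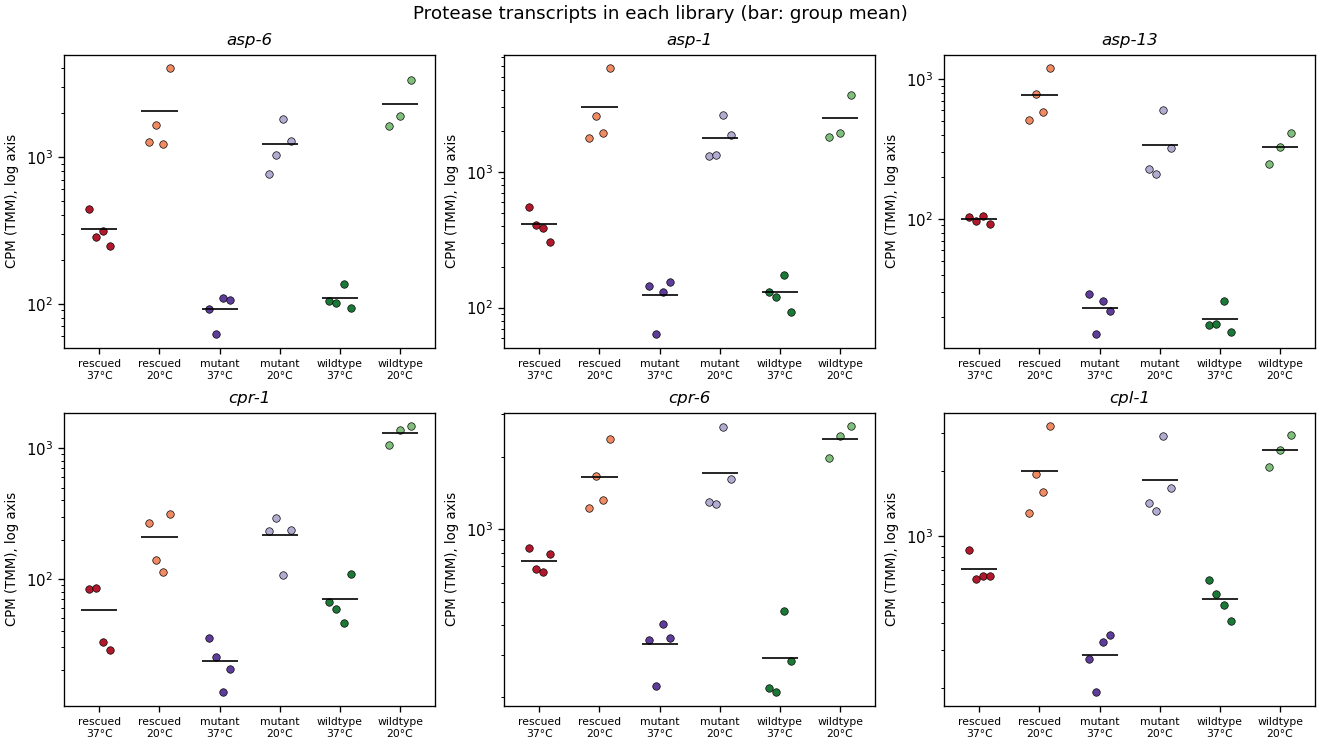
CPM (log axis) of 6 protease genes in each of the 23 libraries, by genotype and temperature. Points are libraries and bars are group means. For *asp-6*, *asp-1* and *asp-13* the 37°C libraries of each genotype lie below its 20°C libraries, and the rescued libraries at 37°C lie above the mutant and wildtype libraries at 37°C.

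*asp-5*, which lies next to *asp-6* and *asp-12* on chromosome V (8272375 to 8274046 in WBcel235, with *asp-6* at 8267511 to 8268937 and *asp-12* at 8269254 to 8272058), had 384, 332, 271 and 231 CPM in rescued animals at 37°C, against 477, 705, 543 and 1343 CPM at 20°C (-1.29 ± 0.28, adjusted p = 0.00625). Mutants had 98.1, 66.7, 137 and 84.2 CPM at 37°C, against 322, 389, 786 and 488 CPM at 20°C (-2.36 ± 0.28, adjusted p = 6.40e-05). Wildtype animals had 90.1, 89.7, 136 and 77.4 CPM at 37°C, against 677, 706 and 1231 CPM at 20°C (-3.16 ± 0.27, adjusted p = 0.000152). *asp-2*, of the same family, had 666, 559.6, 522 and 474 CPM at 37°C, against 905, 1233, 989 and 2079 CPM at 20°C in rescued animals (-1.19 ± 0.23, adjusted p = 0.00334), 236, 136, 238 and 146 CPM against 627, 647, 1163 and 777 CPM in mutants (-2.09 ± 0.24, adjusted p = 5.47e-05) and 118, 97.5, 232 and 127 CPM against 705, 829 and 1190 CPM in wildtype animals (-2.67 ± 0.30, adjusted p = 0.000515). In both genes the temperatures were separate in every genotype.

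*asp-3* and *asp-4*, the cathepsin D-like proteases known for their part in necrotic death of worm neurons, lost less. *asp-3* had 1340, 1251, 833 and 728 CPM at 37°C, against 1169, 1385, 1070 and 2932 CPM at 20°C in rescued animals, a difference that did not pass the test (-0.62 ± 0.30, adjusted p = 0.167). It had 487, 310.3, 483 and 609 CPM against 835, 891, 1886 and 1140 CPM in mutants (-1.33 ± 0.26, adjusted p = 0.00191) and 586, 588, 561 and 331 CPM against 1295, 1468 and 2196 CPM in wildtype animals (-1.68 ± 0.26, adjusted p = 0.00194). The temperatures overlapped in rescued animals and not in the other 2 genotypes. *asp-4* had 641, 753, 654 and 804 CPM at 37°C, against 648, 1039, 876 and 1351 CPM at 20°C in rescued animals (-0.42 ± 0.19, adjusted p = 0.150), 439, 364, 579 and 454 CPM against 549, 573, 1290 and 775 CPM in mutants (-0.80 ± 0.25, adjusted p = 0.0250) and 438, 409.5, 676 and 471 CPM against 704, 985 and 1197 CPM in wildtype animals (-0.96 ± 0.22, adjusted p = 0.0121). It had the smallest wildtype change of the 19 protease genes, and its temperatures overlapped in mutants although the difference passed the test there.

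*asp-8*, a gene of low level, fell by much the same amount in the 3 genotypes (-2.24 ± 0.38, adjusted p = 0.00130 in rescued animals, -2.13 ± 0.30, adjusted p = 0.000177 in mutants and -2.19 ± 0.44, adjusted p = 0.00640 in wildtype animals). Its libraries held 11.5, 5.16, 6.67 and 5.19 CPM at 37°C, against 20.95, 26.03, 24.4 and 67.1 CPM at 20°C in rescued animals, 4.33, 5.94, 3.02 and 4.24 CPM against 20.9, 27.1, 10.1 and 19.1 CPM in mutants and 4.47, 3.13, 1.55 and 2.98 CPM against 18.8, 6.34 and 15.6 CPM in wildtype animals. *asp-12* varied widely among the rescued libraries, with 214, 212, 46.4 and 29.1 CPM at 37°C, against 268, 109, 58.2 and 421 CPM at 20°C, and did not pass the heat test there (-0.75 ± 0.63, adjusted p = 0.445). In mutants it had 13.9, 8.15, 5.71 and 10.2 CPM at 37°C, against 34.7, 29.3, 14.4 and 30.9 CPM at 20°C (-1.51 ± 0.30, adjusted p = 0.00190), and in wildtype animals 4.47, 4.098, 6.35 and 1.94 CPM at 37°C, against 17.6, 9.32 and 19.2 CPM at 20°C (-1.88 ± 0.40, adjusted p = 0.00866). The last of the tested aspartyl protease genes, *asp-14*, fell in all 3 genotypes (-0.92 ± 0.27, adjusted p = 0.0298 in rescued animals, -2.12 ± 0.55, adjusted p = 0.00962 in mutants and -2.48 ± 0.53, adjusted p = 0.00807 in wildtype animals). It shares exon sequence on 1 strand with *fah-1*, so part of its counts may be uncertain.

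Among the cysteine proteases the cathepsin B-like gene *cpr-1*, first described as a gut protease, lost most in wildtype animals. It had 83.9, 84.8, 32.9 and 28.6 CPM in rescued animals at 37°C, against 269, 138, 112 and 316 CPM at 20°C (-1.84 ± 0.39, adjusted p = 0.00553). Mutants had 35.3, 25.2, 13.5 and 20.5 CPM at 37°C, against 232, 291, 108 and 236 CPM at 20°C (-3.18 ± 0.33, adjusted p = 2.20e-05). Wildtype animals had 66.9, 59.2, 45.6 and 108 CPM at 37°C, against 1065, 1388 and 1472 CPM at 20°C (-4.24 ± 0.29, adjusted p = 7.94e-05). The 3 wildtype libraries at 20°C were above every other library. *cpr-4*, another cathepsin B-like gene, had 114.5, 97.8, 49.7 and 46.9 CPM at 37°C, against 178, 116, 84.4 and 461 CPM at 20°C in rescued animals (-1.41 ± 0.45, adjusted p = 0.0429). It had 63.8, 29.4, 37.4 and 43.1 CPM against 184, 214, 221 and 259 CPM in mutants (-2.33 ± 0.21, adjusted p = 9.66e-06) and 79.1, 69.2, 53.7 and 62.4 CPM against 554, 511 and 772 CPM in wildtype animals (-3.22 ± 0.20, adjusted p = 4.95e-05).

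*cpr-6*, also cathepsin B-like, had 834, 680.3, 662 and 787 CPM in rescued animals at 37°C, against 1225, 1662, 1320 and 2376 CPM at 20°C (-1.11 ± 0.20, adjusted p = 0.00181). Mutants had 346, 223, 405 and 352 CPM at 37°C, against 1299, 1270, 2668 and 1623 CPM at 20°C (-2.37 ± 0.26, adjusted p = 3.26e-05). Wildtype animals had 219.5, 209.6, 456 and 283 CPM at 37°C, against 1977, 2444 and 2679 CPM at 20°C (-3.03 ± 0.27, adjusted p = 0.000203). Each genotype's temperatures were separate, and the rescued libraries at 37°C were all above those of the other 2 genotypes. The fitted fall was thus 2.16-fold in rescued animals, 5.17-fold in mutants and 8.17-fold in wildtype animals.

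*cpl-1*, the cathepsin L of the worm, which is needed for yolk processing and embryonic development, was the protease gene whose fitted fall was larger in mutants than in wildtype animals. It had 868, 639, 657 and 654 CPM in rescued animals at 37°C, against 1287, 1934, 1608 and 3227 CPM at 20°C (-1.48 ± 0.24, adjusted p = 0.00111). It had 272, 190.4, 325 and 351 CPM in mutants at 37°C, against 1429, 1309, 2905 and 1671 CPM at 20°C (-2.68 ± 0.27, adjusted p = 1.98e-05), and 631, 541, 480.1 and 405 CPM in wildtype animals at 37°C, against 2091, 2500 and 2953 CPM at 20°C (-2.29 ± 0.20, adjusted p = 0.000170). The mutant and wildtype changes did not differ beyond their error (difference of log2 fold changes -0.39 ± 0.39, adjusted p = 0.972). *cpz-1*, the cathepsin Z-like protease with a part in molting, had 598, 479.9, 434 and 442 CPM at 37°C, against 702, 816, 677 and 1246 CPM at 20°C in rescued animals (-0.78 ± 0.19, adjusted p = 0.0131), 213, 130.2, 266 and 209.9 CPM against 531, 451, 1096 and 642 CPM in mutants (-1.73 ± 0.28, adjusted p = 0.000459) and 246, 201, 256 and 152 CPM against 692, 810 and 837 CPM in wildtype animals (-1.87 ± 0.20, adjusted p = 0.000381).

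The other cathepsin B-like genes fell too. *cpr-5* had 100.4, 105, 86.2 and 102 CPM at 37°C, against 206, 303, 269.7 and 367 CPM at 20°C in rescued animals (-1.50 ± 0.16, adjusted p = 4.59e-05), 168, 117, 94.3 and 231 CPM against 656, 887, 786 and 877 CPM in mutants (-2.39 ± 0.24, adjusted p = 2.23e-05) and 257, 176, 105 and 135 CPM against 946, 1103 and 1119 CPM in wildtype animals (-2.65 ± 0.29, adjusted p = 0.000447). Its rescued libraries at 20°C were all below the 20°C libraries of both other genotypes. *cpr-8*, its neighbour on chromosome V (1134485 to 1139172, beside *cpr-5* at 1132598 to 1134036), had 8.11, 8.81, 7.79 and 10.5 CPM at 37°C, against 11.2, 18.7, 13.9 and 19.4 CPM at 20°C in rescued animals (-0.81 ± 0.21, adjusted p = 0.0148), 10.01, 9.81, 6.798 and 7.65 CPM against 24.5, 24.2, 27.5 and 23.4 CPM in mutants (-1.53 ± 0.17, adjusted p = 3.24e-05) and 5.59, 4.098, 7.63 and 4.48 CPM against 22.1, 22.9 and 23.2 CPM in wildtype animals (-2.07 ± 0.24, adjusted p = 0.000546). *cpr-3* had 17.3, 14.6, 16.5 and 16.3 CPM at 37°C, against 16.9, 23.4, 22.3 and 24.6 CPM at 20°C in rescued animals, where it did not pass the test (-0.39 ± 0.17, adjusted p = 0.114). It had 17.9, 17.7, 12.5 and 17.6 CPM against 26.5, 36.5, 54.2 and 32.5 CPM in mutants (-1.19 ± 0.22, adjusted p = 0.00107) and 9.66, 7.35, 12.5 and 8.02 CPM against 27.8, 24.4 and 46.3 CPM in wildtype animals (-1.82 ± 0.27, adjusted p = 0.00171). *cpr-9* fell in all 3 genotypes (-0.85 ± 0.21, adjusted p = 0.0112 in rescued animals, -1.89 ± 0.29, adjusted p = 0.000341 in mutants and -2.48 ± 0.32, adjusted p = 0.000866 in wildtype animals).

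The number of genes that passed the heat test in wildtype animals depended on the depth classes, which lie unevenly over the temperatures. Of all genes tested 2299 fell and 2029 rose in wildtype animals, and 546 fell and 804 rose with the depth class as a covariate. Over 7 alternative fits the wildtype log2 fold change lay between -4.51 and -4.33 for *asp-6* and between -2.97 and -2.03 for *cpr-5*. With the depth class as a covariate 20 of the 46 genes passed the test in wildtype animals, 13 of the 19 protease genes and 6 of the 21 pump genes falling, and with only the libraries under 20000000 counts, which leaves 1 wildtype library at 37°C, 17 passed, 14 protease genes and 3 pump genes falling. In rescued animals the count of 24 genes changed by heat became 15 without replicate 2 at 37°C, with 11 protease genes falling. The fall of *cpr-4* in rescued animals no longer passed in 4 of 8 fits that left out 1 library (replicate 4 at 20°C, or replicate 2, 3 or 4 at 37°C), and its log2 fold change was -0.67 without replicate 4 at 20°C. That of *asp-14* in rescued animals passed in 3 of 8 such fits and that of *asp-4* in mutants in 4 of 8, with a value of -0.46 for *asp-4* without mutant replicate 3 at 20°C.

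Intestinal transcripts fell with heat as well, by less in the median than the protease transcripts. Of 9 genes known as intestinal markers, 2 fell with heat in rescued animals, 8 in mutants and 8 in wildtype animals, and none rose. Their summed level was 547 to 593 CPM at 37°C, against 766 to 1785 CPM at 20°C in rescued animals, 246 to 355 CPM against 882 to 1509.6 CPM in mutants and 207 to 365 CPM against 961 to 1272 CPM in wildtype animals. The median log2 fold change of the 9 markers was -0.19 in rescued animals, -1.16 in mutants and -1.22 in wildtype animals. The 19 protease genes had -1.19, -2.13 and -2.48 in the same order. In wildtype animals the markers ranged from -3.81 to -0.41. The microvillar actin gene *act-5* was the lowest, at -3.81 ± 0.25 (adjusted p = 5.94e-05), and the intestinal transcription factor gene *elt-2* changed by -2.26 ± 0.25 (adjusted p = 0.000493). In whole animals fewer cells of a type and less RNA per cell cannot be told apart, and the part of these transcripts in the protease result was not tested.

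**Figure D3:**
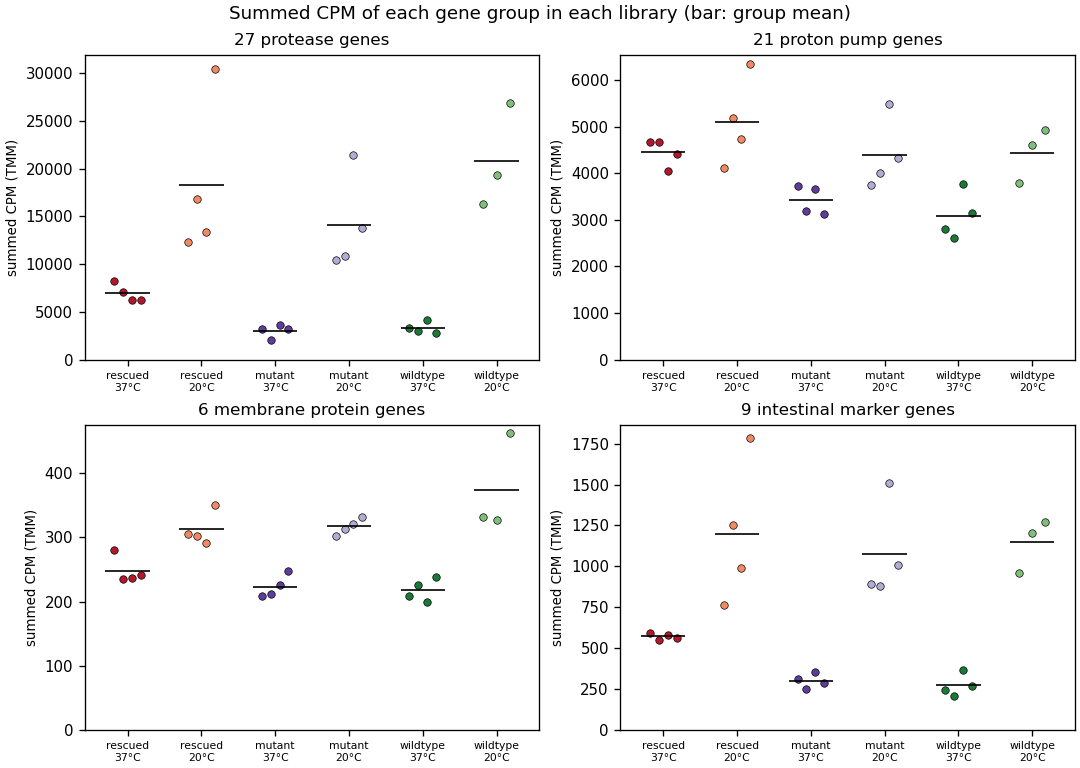
Summed CPM of the 27 protease genes, the 21 pump genes, the 6 membrane protein genes and 9 intestinal marker genes in each library, by genotype and temperature. Points are libraries and bars are group means. The protease and intestinal sums of every genotype are lower at 37°C than at 20°C, and at 37°C those of the rescued libraries are above the others.

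The pump genes as a group changed less. In the median they moved by -0.11 in rescued animals, -0.37 in mutants and -0.52 in wildtype animals on the log2 scale at 37°C over 20°C. Of 21 genes, 5 fell and 2 rose in rescued animals, 11 fell and 2 rose in mutants, and 11 fell and 1 rose in wildtype animals. The summed level was 4045 to 4668 CPM at 37°C, against 4113 to 6348 CPM at 20°C in rescued animals, 3123 to 3735 CPM against 3752 to 5482 CPM in mutants and 2601 to 3776 CPM against 3789 to 4917 CPM in wildtype animals.

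The 4 a subunits, the parts of V0 that form the proton path and set the pump's place in the cell, did not move together. *vha-6*, the a subunit of the apical intestinal membrane, had 200.3, 195, 224 and 195 CPM in rescued animals at 37°C, against 178, 346, 265 and 495 CPM at 20°C, which did not pass the test (-0.61 ± 0.23, adjusted p = 0.0841). It had 98.2, 57.6, 108 and 74.2 CPM in mutants at 37°C, against 188, 208, 403 and 243 CPM at 20°C (-1.62 ± 0.25, adjusted p = 0.000375), and 45.5, 38.8, 104 and 48.1 CPM in wildtype animals at 37°C, against 197, 281 and 394 CPM at 20°C (-2.31 ± 0.36, adjusted p = 0.00200). The temperatures overlapped in rescued animals only. *vha-5*, the a subunit known from the hypodermis and the excretory canal, rose in all 3 genotypes. It had 195, 251, 275 and 230.3 CPM in rescued animals at 37°C, against 118, 153, 125 and 149 CPM at 20°C (0.84 ± 0.14, adjusted p = 0.00121), 244, 174, 216 and 165 CPM in mutants at 37°C, against 73.4, 69.5, 83.3 and 75.4 CPM at 20°C (1.41 ± 0.14, adjusted p = 1.70e-05), and 147, 129, 266 and 211 CPM in wildtype animals at 37°C, against 61.6, 78.5 and 74.5 CPM at 20°C (1.38 ± 0.24, adjusted p = 0.00360), with no overlap of the temperatures. *vha-5* was named here after its values were seen, as the pump gene that rose in every genotype, and it overlaps *F35H10.10* on the other strand. In wildtype animals, among which the deep libraries are at 37°C only, its rise did not pass the test with the depth class as a covariate or with the shallower libraries alone.

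*unc-32*, the a subunit known from neurons among other tissues, had 159.7, 151, 188 and 162 CPM at 37°C, against 172, 193, 188 and 181 CPM at 20°C in rescued animals (-0.11 ± 0.12, adjusted p = 0.561), 146, 135, 141 and 145 CPM against 158, 181, 175 and 174 CPM in mutants (-0.28 ± 0.10, adjusted p = 0.0398) and 111, 125, 117 and 131 CPM against 155, 158 and 198 CPM in wildtype animals (-0.50 ± 0.13, adjusted p = 0.0211). The fourth, *vha-7*, did not pass the test in any genotype (0.21 ± 0.15, adjusted p = 0.377 in rescued animals, 0.21 ± 0.13, adjusted p = 0.234 in mutants and 0.50 ± 0.17, adjusted p = 0.0516 in wildtype animals). Per transcript length, in TPM, *vha-6* supplied 33.5% ± 1.01 of the summed a subunit level at 37°C, against 48.5% ± 10.1 at 20°C in rescued animals, 19.3% ± 3.28 against 49.9% ± 8.39 in mutants and 15.01% ± 4.24 against 54.4% ± 7.21 in wildtype animals. *vha-5* supplied 35.6% ± 3.201 at 37°C, against 19.8% ± 2.32 at 20°C in rescued animals, 41.97% ± 2.97 against 13.7% ± 1.56 in mutants and 44.4% ± 5.296 against 12.7% ± 1.86 in wildtype animals. At 20°C *vha-6* was thus the largest of the 4 by mean level in each genotype, at 37°C *vha-5* was, and in rescued animals at 37°C *vha-5* and *vha-6* overlapped.

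**Figure D4:**
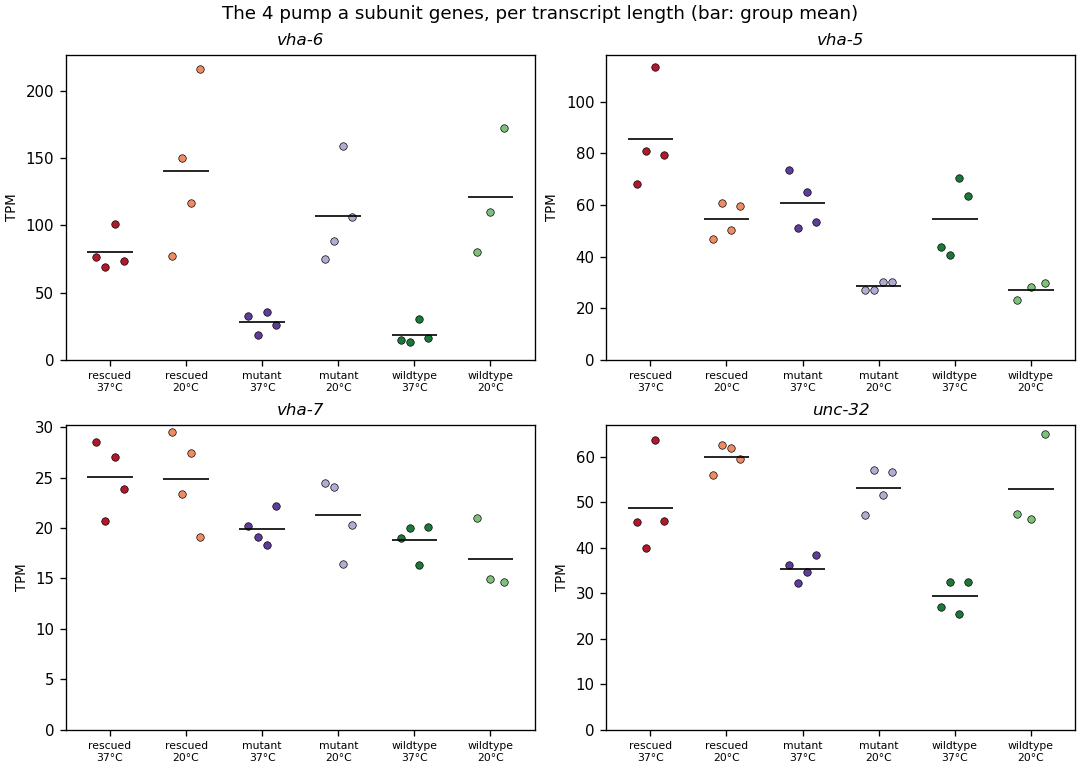
TPM of the 4 a subunit genes of the V0 sector in each library, by genotype and temperature. Points are libraries and bars are group means. *vha-6* is lower and *vha-5* higher at 37°C than at 20°C in mutants and wildtype animals, and *vha-6* at 37°C is highest in the rescued libraries.

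The other V0 genes mostly fell. *vha-2*, a c-type proteolipid of the rotor ring, had 435, 378, 314 and 362 CPM at 37°C, against 412, 498, 454 and 645 CPM at 20°C in rescued animals (-0.40 ± 0.16, adjusted p = 0.0957), 274, 227, 267 and 242 CPM against 329, 382, 550.1 and 429 CPM in mutants (-0.74 ± 0.15, adjusted p = 0.00246) and 249.8, 226, 297 and 256 CPM against 413, 463 and 532 CPM in wildtype animals (-0.88 ± 0.14, adjusted p = 0.00236). Its close relative *vha-3* fell in all 3 genotypes (-0.91 ± 0.17, adjusted p = 0.00239 in rescued animals, -1.23 ± 0.21, adjusted p = 0.000771 in mutants and -1.22 ± 0.18, adjusted p = 0.00169 in wildtype animals), and since reads of the 2 may be exchanged, the split between them is uncertain. *vha-1*, another proteolipid, did not pass the test in any genotype (-0.095 ± 0.13, adjusted p = 0.662, -0.16 ± 0.12, adjusted p = 0.343 and -0.31 ± 0.14, adjusted p = 0.111 in rescued, mutant and wildtype animals). *vha-4*, a second kind of proteolipid, and *vha-16*, the d subunit that joins ring and stalk, fell in mutants (-0.62 ± 0.14, adjusted p = 0.00411 for *vha-4* and -0.45 ± 0.13, adjusted p = 0.0158 for *vha-16*) and in wildtype animals (-0.79 ± 0.19, adjusted p = 0.0131 for *vha-4* and -0.65 ± 0.16, adjusted p = 0.0132 for *vha-16*), and neither passed the test in rescued animals. The e subunit gene *vha-17* passed in none.

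In the V1 sector the genes of the A, B and C subunits fell, and no other gene of the sector did. *vha-13*, the catalytic A subunit, had 284, 245, 244 and 227 CPM at 37°C, against 336, 442, 397 and 622 CPM at 20°C in rescued animals (-0.80 ± 0.17, adjusted p = 0.00591), 171, 122, 159 and 152 CPM against 272, 315, 479 and 372 CPM in mutants (-1.25 ± 0.17, adjusted p = 0.000177) and 165, 154, 173 and 143 CPM against 326, 421 and 456 CPM in wildtype animals (-1.34 ± 0.15, adjusted p = 0.000484). *vha-12*, the B subunit that alternates with A around the head, had 210.1, 198, 177 and 171 CPM at 37°C, against 207, 291, 253 and 417 CPM at 20°C in rescued animals (-0.59 ± 0.18, adjusted p = 0.0373), 131, 93.6, 126 and 105 CPM against 187, 205, 326 and 249 CPM in mutants (-1.08 ± 0.18, adjusted p = 0.000549) and 111, 106, 143 and 108 CPM against 226, 306 and 291 CPM in wildtype animals (-1.24 ± 0.16, adjusted p = 0.000833). *vha-11*, the C subunit on which the reversible joining of V1 to V0 depends, fell in the 3 genotypes as well (-0.56 ± 0.16, adjusted p = 0.0287, -1.23 ± 0.20, adjusted p = 0.000550 and -1.46 ± 0.16, adjusted p = 0.000427 in rescued, mutant and wildtype animals). By contrast the D subunit gene *vha-14*, of the central shaft, rose in rescued animals (0.46 ± 0.14, adjusted p = 0.0336) and mutants (0.38 ± 0.13, adjusted p = 0.0402), with 0.13 ± 0.18, adjusted p = 0.607 in wildtype animals. The genes of the E, F and G subunits (*vha-8*, *vha-9* and *vha-10*) and both H subunit genes (*vha-15* and *vha-18*) passed the heat test in no genotype. The rise of *vha-14* passed in 2 of 8 fits that left out 1 library in rescued animals, those without replicate 4 at 20°C or replicate 3 at 37°C, and in 1 of 8 in mutants, that without replicate 3 at 20°C. Of the accessory subunits, *vha-19* fell in all 3 genotypes (-0.58 ± 0.17, adjusted p = 0.0322, -1.002 ± 0.15, adjusted p = 0.000375 and -1.22 ± 0.19, adjusted p = 0.00184 in rescued, mutant and wildtype animals) and *vha-20* in mutants and wildtype animals (-0.73 ± 0.19, adjusted p = 0.00892 and -0.97 ± 0.21, adjusted p = 0.00905). *vha-13* and *vha-4* share exon sequence with another gene on their own strand. In rescued animals the falls of *vha-12*, *vha-11* and *vha-19* passed in 3, 4 and 4 of 8 fits that left out 1 library. The fall of *unc-32* passed in 2 of 8 such fits in mutants and in 4 of 7 in wildtype animals.

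Membrane proteins of the lysosome moved little, *lmp-1* and *laat-1* excepted. *lmp-1*, a LAMP-type glycoprotein of the lysosomal membrane, had 62.9, 58.9, 49.1 and 51.9 CPM at 37°C, against 77.01, 79.4, 73.3 and 130 CPM at 20°C in rescued animals (-0.65 ± 0.18, adjusted p = 0.0212), 48.9, 42.97, 63.5 and 59.4 CPM against 93.2, 107, 126 and 139.9 CPM in mutants (-1.12 ± 0.16, adjusted p = 0.000230) and 45.96, 54.2, 47.5 and 56.7 CPM against 114, 129 and 241 CPM in wildtype animals (-1.66 ± 0.24, adjusted p = 0.00154). *laat-1*, which exports lysine and arginine from the lysosome, had 28.02, 19.8, 24.6 and 20.8 CPM at 37°C, against 43.9, 38.99, 34.02 and 48.2 CPM at 20°C in rescued animals (-0.79 ± 0.17, adjusted p = 0.00568), 18.9, 16.8, 15.4 and 26.4 CPM against 31.2, 30.1, 34.3 and 39.3 CPM in mutants (-0.80 ± 0.18, adjusted p = 0.00391) and 24.7, 30.5, 17.8 and 26.2 CPM against 44.6, 37.5 and 46.7 CPM in wildtype animals (-0.80 ± 0.21, adjusted p = 0.0196). Its fitted fall was nearly equal in the 3 genotypes, and in wildtype animals it passed in 4 of 7 fits that left out 1 library. *cup-5*, the worm mucolipin and a lysosomal cation channel, had 80.03, 63.6, 70.02 and 77.02 CPM at 37°C, against 90.1, 86.4, 87.3 and 63.4 CPM at 20°C in rescued animals (-0.13 ± 0.14, adjusted p = 0.559), 53.9, 65.2, 59.3 and 70.5 CPM against 89.3, 82.8, 73.1 and 68.8 CPM in mutants (-0.34 ± 0.13, adjusted p = 0.0570) and 45.3, 48.01, 42.5 and 51.9 CPM against 74.6, 61.6 and 63.98 CPM in wildtype animals, where it fell (-0.52 ± 0.14, adjusted p = 0.0243) and passed in 3 of 7 such fits.

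The remaining 3 membrane protein genes did not pass the heat test. *scav-3*, the counterpart of LIMP-2 that keeps lysosomes intact, had 86.2, 68.1, 71.6 and 70.5 CPM at 37°C, against 74.6, 73.6, 74.2 and 74.3 CPM at 20°C in rescued animals, 70.9, 74.4, 69.2 and 77.9 CPM against 74.5, 79.6, 68.6 and 66.6 CPM in mutants and 80.1, 76.9, 71.4 and 84.7 CPM against 80.0, 82.9 and 90.9 CPM in wildtype animals. Its fitted changes lay close to 0 with small errors (0.036 ± 0.12, adjusted p = 0.871 in rescued animals, 0.015 ± 0.11, adjusted p = 0.927 in mutants and -0.12 ± 0.12, adjusted p = 0.489 in wildtype animals). *ncr-1*, a worm gene of the Niemann-Pick C1 kind that handles sterol, was low throughout, with 5.47, 5.71, 7.33 and 4.73 CPM at 37°C, against 7.401, 5.17, 5.003 and 10.4 CPM at 20°C in rescued animals, 5.72, 5.14, 4.45 and 3.74 CPM against 4.83, 5.65, 4.78 and 6.55 CPM in mutants and 5.59, 9.39, 6.52 and 6.81 CPM against 8.24, 4.01 and 8.35 CPM in wildtype animals. The sixth gene, *lmp-2*, changed by -0.12 ± 0.20, adjusted p = 0.718, -0.10 ± 0.21, adjusted p = 0.731 and -0.15 ± 0.26, adjusted p = 0.703 in rescued, mutant and wildtype animals.

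Between mutants and wildtype animals at 20°C 2 of these genes passed the test. Mutants had lower *cpr-1*, with 232, 291, 108 and 236 CPM in mutants against 1065, 1388 and 1472 CPM in wildtype animals (-2.58 ± 0.30, adjusted p = 0.00835, 5.96-fold), and lower *cpr-4*, with 184, 214, 221 and 259 CPM against 554, 511 and 772 CPM (-1.47 ± 0.17, adjusted p = 0.00838). These were the 2 of 46 genes that passed, both lower, and the groups did not overlap in either. Of all genes tested 0.601% were lower and 0.134% higher. The pump genes lay close to no change, with a median log2 fold change of 0.023 and a range of -0.17 to 0.35. The 19 protease genes tested had a median of -0.39, with 14 of them negative. For 36 lysosome genes outside these families the median was -0.32, with 31 negative and 1 past the test. Over all genes tested the median was -0.073, with 7533 of 13482 negative. Without wildtype replicate 4 at 20°C, which had the highest protease share of its group, the median over all genes was 0.0058. Genes that did not pass the test are not thereby shown to be unchanged.

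In rescued animals at 20°C few of these genes differed from the other genotypes, in shares near or below those of all genes. Against mutants 2 genes were higher and 4 lower, beside 10.1% of all genes higher and 13.1% lower. Against wildtype animals 3 were higher and 3 lower, beside 5.0% and 7.92% of all genes. The 2 comparisons share the rescued libraries. *asp-12* was higher in rescued animals, at 268, 109, 58.2 and 421 CPM against 34.7, 29.3, 14.4 and 30.9 CPM in mutants (2.90 ± 0.56, adjusted p = 0.00401) and 17.6, 9.32 and 19.2 CPM in wildtype animals (3.77 ± 0.70, adjusted p = 0.0110, 13.6-fold). All 4 rescued libraries were above all others at 20°C, with a wide spread among themselves. *asp-13* was higher than in wildtype animals (1.20 ± 0.32, adjusted p = 0.0410), and *vha-5* was higher than in both (0.77 ± 0.11, adjusted p = 0.000884 against mutants and 0.90 ± 0.15, adjusted p = 0.00719 against wildtype animals).

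Lower in rescued animals at 20°C was *cpr-5*, at 206, 303, 269.7 and 367 CPM against 656, 887, 786 and 877 CPM in mutants (-1.56 ± 0.18, adjusted p = 0.000193) and 946, 1103 and 1119 CPM in wildtype animals (-1.91 ± 0.20, adjusted p = 0.00175). *cpr-8* (-0.74 ± 0.19, adjusted p = 0.0169) and *cpr-3* (-0.86 ± 0.22, adjusted p = 0.0175) were lower than in mutants, and *cpr-1* was lower than in wildtype animals (-2.68 ± 0.36, adjusted p = 0.00387) and close to its level in mutants (-0.12 ± 0.37, adjusted p = 0.844). *cpr-4* did not pass the test against wildtype animals (edgeR, -1.57, adjusted p = 0.0861). Its mean was 210 CPM in rescued animals, with a range of 84.4 to 461, 220 CPM in mutants and 612 CPM in wildtype animals. *vha-18*, 1 of the 2 genes of the H subunit that clasps V1 to V0, was at 191, 197, 215 and 174 CPM in rescued animals, against 338, 336, 298 and 303 CPM in mutants (-0.79 ± 0.10, adjusted p = 0.000291) and 267, 290 and 239.6 CPM in wildtype animals (-0.48 ± 0.11, adjusted p = 0.0284). Against wildtype animals the *vha-18* call held in 2 of 7 fits that left out 1 library, those without wildtype or rescued replicate 4 at 20°C, and the *asp-13* call in 3 of 7. The number of changed genes against wildtype animals depended on single libraries. It was 10 without rescued replicate 4 at 20°C, whose protease levels were the highest of its group, and 3 without wildtype replicate 3 at 20°C.

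At 37°C the rescued animals held more pump and protease transcripts than both other genotypes. Against mutants 27 of 46 genes were higher and 2 lower, and against wildtype animals 30 were higher and 2 lower. Of all genes tested 16.5% were higher and 20.3% lower against mutants, and 18.2% higher and 21.9% lower against wildtype animals. The median log2 fold change of the 46 genes was 0.57 against mutants and 0.61 against wildtype animals, beside -0.0026 and -0.042 over all genes. By family, 14 protease genes were higher and 1 lower in each comparison, and among the pump genes 12 were higher and 1 lower against mutants and 14 higher and 1 lower against wildtype animals. The comparisons share the rescued libraries and are not independent of each other.

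The largest difference was again in *asp-12*, at 214, 212, 46.4 and 29.1 CPM in rescued animals, against 13.9, 8.15, 5.71 and 10.2 CPM in mutants (3.63 ± 0.56, adjusted p = 0.000338) and 4.47, 4.098, 6.35 and 1.94 CPM in wildtype animals (4.84 ± 0.68, adjusted p = 0.000345). Also higher were *asp-13* (2.04 ± 0.18, adjusted p = 3.05e-05 against mutants and 2.31 ± 0.17, adjusted p = 2.69e-05 against wildtype animals), *asp-6* (1.73 ± 0.21, adjusted p = 0.000136 and 1.51 ± 0.20, adjusted p = 0.000239) and *asp-1* (1.68 ± 0.25, adjusted p = 0.000278 and 1.62 ± 0.22, adjusted p = 0.000315), with the values by library given above and no overlap with either genotype. *asp-2* was 2.80-fold higher than in mutants and 3.73-fold higher than in wildtype animals (1.48 ± 0.20, adjusted p = 0.000192 and 1.90 ± 0.25, adjusted p = 0.000230). *vha-6* was higher too, at 200.3, 195, 224 and 195 CPM in rescued animals, against 98.2, 57.6, 108 and 74.2 CPM in mutants (1.19 ± 0.18, adjusted p = 0.000297) and 45.5, 38.8, 104 and 48.1 CPM in wildtype animals (1.73 ± 0.27, adjusted p = 0.000601). Every rescued library was above every other one.

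The *vha-11*, *vha-12* and *vha-13* genes were higher in rescued animals by a smaller factor. *vha-11* was higher by 0.85 ± 0.15, adjusted p = 0.000631 against mutants and 1.04 ± 0.14, adjusted p = 0.000267 against wildtype animals, *vha-12* by 0.66 ± 0.14, adjusted p = 0.00250 and 0.64 ± 0.14, adjusted p = 0.00367, and *vha-13* by 0.66 ± 0.14, adjusted p = 0.00222 and 0.60 ± 0.13, adjusted p = 0.00368 on the log2 scale. *cpl-1* was higher than in mutants (1.24 ± 0.19, adjusted p = 0.000366) but did not pass against wildtype animals (0.39 ± 0.18, adjusted p = 0.100). *cpr-1* was likewise higher than in mutants (1.21 ± 0.35, adjusted p = 0.0147) and not past the test against wildtype animals (-0.34 ± 0.37, adjusted p = 0.493). Among the membrane protein genes *lmp-2* was higher against both (0.60 ± 0.19, adjusted p = 0.0238 and 0.65 ± 0.22, adjusted p = 0.0327), the second in 3 of 8 fits that left out 1 library, and *cup-5* against wildtype animals (0.57 ± 0.13, adjusted p = 0.00508).

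The same 2 genes were lower in rescued animals in both comparisons at 37°C, *cpr-5* and *vha-18*. *cpr-5* had 100.4, 105, 86.2 and 102 CPM in rescued animals, against 168, 117, 94.3 and 231 CPM in mutants (-0.70 ± 0.21, adjusted p = 0.0206) and 257, 176, 105 and 135 CPM in wildtype animals (-0.84 ± 0.24, adjusted p = 0.0169), with overlapping libraries, and the call against mutants held in 4 of 8 fits that left out 1 library. *vha-18* had 146, 154, 129 and 168 CPM in rescued animals, against 234, 336, 247 and 260.2 CPM in mutants (-0.92 ± 0.14, adjusted p = 0.000385) and 211, 218, 228 and 258 CPM in wildtype animals (-0.68 ± 0.12, adjusted p = 0.00163), with no overlap. The other H subunit gene, *vha-15*, was higher in rescued animals (0.45 ± 0.14, adjusted p = 0.0193 against mutants and 0.55 ± 0.16, adjusted p = 0.0205 against wildtype animals). In TPM, *vha-18* supplied 43.95% ± 2.82 of the summed H subunit level in rescued animals at 37°C, against 66.8% ± 6.47 in mutants and 65.1% ± 4.99 in wildtype animals, with ranges that did not overlap. At 20°C the shares were 54.8% ± 7.55 in rescued animals, 71.1% ± 5.76 in mutants and 65.98% ± 6.29 in wildtype animals.

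**Figure D5:**
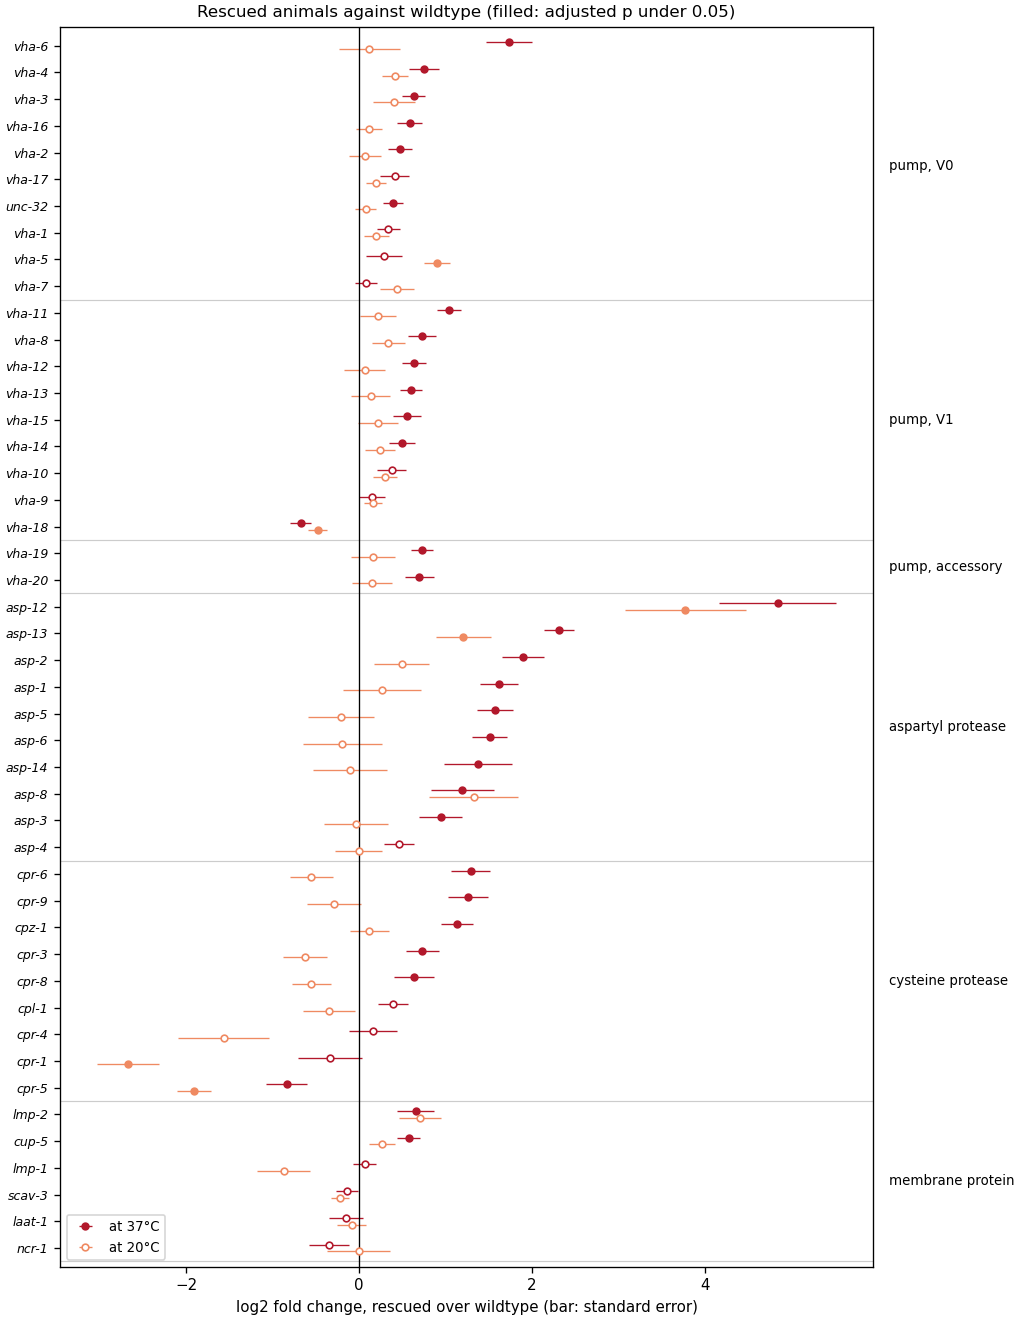
Log2 fold change in rescued over wildtype animals (horizontal axis) of the 46 genes tested, at 37°C and at 20°C, grouped by role. Bars are standard errors and filled points have an adjusted p under 0.05. At 37°C 30 genes are higher and 2 lower, and at 20°C 3 are higher and 3 lower.

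Between mutants and wildtype animals at 37°C none of the 46 genes passed the edgeR test, with 0 higher and 0 lower, beside 0.134% of all genes higher and 0.63% lower. At an unadjusted p under 0.05 there were 5 higher and 4 lower, and DESeq2 called 4, as did edgeR without the filter on low counts. The smallest adjusted p was that of *cpr-1*, at 35.3, 25.2, 13.5 and 20.5 CPM in mutants, against 66.9, 59.2, 45.6 and 108 CPM in wildtype animals (-1.55 ± 0.31, adjusted p = 0.0570). The libraries of the 2 groups did not overlap in this gene, and it passed in 5 of 7 alternative fits and in 2 of 8 fits that left out 1 library, those without mutant replicate 1 or wildtype replicate 3 at 37°C.

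The change with heat was compared between genotypes in a model of all 6 groups. Between mutants and wildtype animals it differed in 0 of the 46 genes, also at an unadjusted p under 0.05 and by DESeq2, and in 0.0% of all genes in either direction. Between rescued animals and mutants it differed in 0 genes, with 14 higher and 1 lower at an unadjusted p under 0.05 and 0 by DESeq2, beside 0.00742% of all genes higher and 0.0371% lower. Between rescued and wildtype animals it differed in 5 genes, all with a smaller fall in rescued animals, beside 2.44% of all genes with a higher and 0.63% with a lower value. These were *cpr-1* (difference of log2 fold changes 2.36 ± 0.57, adjusted p = 0.0274), *cpr-6* (1.87 ± 0.39, adjusted p = 0.0132), *asp-5* (1.82 ± 0.46, adjusted p = 0.0336), *cpr-3* (1.38 ± 0.33, adjusted p = 0.0246) and *cpr-8* (1.22 ± 0.29, adjusted p = 0.0245), all of them proteases. No pump gene passed, the nearest being *vha-6* (1.64 ± 0.47, adjusted p = 0.0550).

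The number of genes in this last comparison was not stable. It was 20, among them 15 protease genes, without rescued replicate 4 at 20°C, and 1 without wildtype replicate 4 at 20°C or without wildtype replicate 2 at 37°C. With DESeq2 it was 13, and with only the libraries under 20000000 counts it was 0. The median difference of the 19 protease genes was 1.38, and it was 1.64 without rescued replicate 4 at 20°C and 1.05 without wildtype replicate 4 at 20°C. Of the 9 intestinal marker genes 5 passed in the same direction, with a median of 1.10, and their part in the protease result was not tested.

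The intestinal markers were also higher in rescued animals at 37°C, 7 of 9 against mutants and 7 of 9 against wildtype animals, with none lower. Their median log2 fold change was 0.68 against mutants and 1.03 against wildtype animals, with a range of 0.19 to 1.68 in the latter. *elt-2* was higher than in wildtype animals by 1.59 ± 0.19 (adjusted p = 0.000156) and *act-5* by 1.62 ± 0.22 (adjusted p = 0.000293) on the log2 scale. Other tissue lists had genes past the threshold as well, some in shares near those of all genes. Of all genes tested 16.5% were higher and 20.3% lower than in mutants, and 18.2% higher and 21.9% lower than in wildtype animals. Of 12 germline and oocyte genes 3 were lower and 1 higher than in mutants and 6 lower than in wildtype animals, of 10 neuron genes 6 were higher and 1 lower than in mutants and 6 higher and 2 lower than in wildtype animals, and of 5 hypodermis genes tested 3 were higher than in mutants and 4 higher than in wildtype animals. Of 9 body wall muscle genes 2 were higher in each comparison, and of 5 sperm genes tested 4 were higher than in mutants and 1 higher than in wildtype animals. With heat 11.7% of all genes were higher and 8.72% lower in rescued animals, 21.3% and 16.8% in mutants, and 15.0% and 17.1% in wildtype animals. Beside these shares the germline and oocyte list had 2 genes higher in rescued animals, 4 higher and 1 lower in mutants and 5 higher in wildtype animals. The neuron list had 5 of 10 genes lower and none higher in rescued animals (median log2 fold change -0.71, beside -0.19 for the intestinal markers), 4 lower and 1 higher in mutants (-0.51) and 4 lower and 1 higher in wildtype animals (-0.38). Sperm, body wall muscle and hypodermis genes had 1, 2 and 2 higher and none lower in rescued animals, 1, 1 and 1 higher in mutants with 1 muscle gene lower, and 1, 1 and 1 higher and none lower in wildtype animals. The part of these transcripts in the pump and protease results was not tested.

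Lysosome genes outside these families, a list of 38 with 36 tested (hydrolases, lipases, glycosidases and others), went the same way in part. With heat 6 fell and 3 rose in rescued animals, 13 fell and 6 rose in mutants, and 13 fell and 4 rose in wildtype animals, with medians of -0.088, -0.44 and -0.76 in that order. The shares of all genes were 8.72%, 16.8% and 17.1% falling and 11.7%, 21.3% and 15.0% rising in the same order. At 37°C 17 were higher and 1 lower in rescued animals than in mutants, and 17 higher and 3 lower than in wildtype animals, with medians of 0.52 and 0.67. Here the shares of all genes were 16.5% higher and 20.3% lower against mutants, and 18.2% and 21.9% against wildtype animals.

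The 8 genes under the filter were *asp-7*, *asp-9*, *asp-15*, *asp-16*, *asp-17*, *asp-18*, *asp-19* and *cpr-2*. None had more than 20 counts in any library, and the highest was *asp-17*, at 0.683, 0.397, 0.3102 and 0.458 CPM in rescued animals at 37°C and 0.916, 1.46 and 0.927 CPM in wildtype animals at 20°C. No difference between groups was tested at this depth. 7 of the 17 aspartyl protease genes were thus at or near the limit of detection in these whole adults, whereas *asp-1* reached 5814 CPM in 1 library.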

How the data were processed

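The authors trimmed paired-end reads with Trimmomatic 0.36, mapped them with STAR 2.5.2b to WBcel235 and counted them per gene with featureCounts of Subread 1.5.2. They deposited raw counts per gene, 1 file per library, without normalization. The strand setting of the counting is not given in the sources used here, so for genes that overlap on opposite strands the reads cannot be told apart.

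The 54 genes, the lists of other genes and the tests were chosen with earlier results of these data known. Strain and temperature in the labels gave the groups. The study describes independent replicates, the labels do not say from which cultures they came, and p-values measure only the spread between these libraries. Wildtype replicate 1 at 20°C was not used because its file repeats another, which left 23 libraries. A mean of 10 or more counts per library was required of a gene (13482 of 46756 passed). Each comparison was fitted to the libraries it compares with edgeR 4.0.16 (TMM, quasi-likelihood test) under R 4.3.3, and p-values were adjusted after Benjamini and Hochberg over all genes kept, at a threshold of 0.05. The differences between genotypes in heat change came from 1 model of the 6 groups. The method was tested on simulated data in which few genes changed, by a set amount up or down. That checks the fit and not the results above, where many genes changed with heat. CPM in the text are TMM-scaled over 23 libraries, and TPM used the exon length in the files. Exon overlaps and gene positions came from the coordinates deposited with the counts, and gene names from Ensembl release 115 for WBcel235.

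Genes with values by library were chosen by a rule: up to 6 with the largest change past the threshold in each heat comparison and each difference of heat changes, up to 4 in each genotype comparison, and 16 chosen for their roles. The alternatives were scaling by library size only, DESeq2 1.42.0, no filter, the replicate number as a block, the depth class as a covariate, libraries under 20000000 counts only, 1 fit of all libraries, the 4 groups only for differences of heat changes, and leaving out each library. The replicate numbers were not shown to pair the libraries. Promoter sequences were not analysed here. Counting error limits the genes of few counts.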

Additional observations from a re-analysis of the deposited data

Results flagged for a closer look

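In 140 groups of 4 libraries checked over the named genes, 10 held a library apart from the other 3 by Dixon's test, beside 1 in 20 that chance gives. 5 of the 10 were replicate 4 of rescued animals at 20°C, which had 4006 CPM of *asp-6*, 2932 CPM of *asp-3*, 67.1 CPM of *asp-8* and 130.0 CPM of *lmp-1*, all highest in its group, and 63.4 CPM of *cup-5*, the lowest. Replicate 1 of rescued animals at 37°C had the highest *cpl-1* of its group, at 868 CPM, and replicate 3 of mutants at 37°C the lowest *cpr-3*, at 12.5 CPM. In wildtype animals at 37°C replicate 3 was highest in *vha-6*, at 104.2 CPM, and in *vha-12*, at 143 CPM, and replicate 4 was lowest in *asp-3*, at 331 CPM.

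The heat change differed between rescued and wildtype animals in 5 protease genes by the test of the difference itself (edgeR, adjusted p under 0.05). The difference of log2 fold changes was 2.36 for *cpr-1*, 1.87 for *cpr-6*, 1.82 for *asp-5*, 1.38 for *cpr-3* and 1.22 for *cpr-8*.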

How the results depend on the processing

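No named gene that passed the test changed direction under any alternative. Counts of the 46 genes past the threshold moved by over 1.5 times as follows, and the causes were not tested unless named. For heat in wildtype animals (34) the count was 20 with the depth class as a covariate and 17 with libraries under 20000000 counts only, a fit of fewer libraries. For rescued animals against mutants at 20°C (6) it was 10 with the depth class as a covariate. For rescued against wildtype animals at 20°C (6) it was 10 with DESeq2 and 11 in 1 fit of all libraries, and the depth class alternatives gave no separate value. For mutants against wildtype animals at 37°C (0) it was 4 with DESeq2, 4 without the filter, 3 with libraries under 20000000 counts only and 2 in 1 fit of all libraries. For the difference of heat changes between rescued and wildtype animals (5) it was 12 with library size only, 13 with DESeq2, 15 without the filter, 11 with the depth class as a covariate and 0 with libraries under 20000000 counts only. For that between rescued animals and mutants (0) it was 2 without the filter.

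Leaving out 1 library at a time gave 15 to 27 genes for heat in rescued animals (24), 3 to 10 for rescued against wildtype animals at 20°C, 0 to 2 for mutants against wildtype animals at 37°C, and 1 to 20 for the difference between rescued and wildtype animals. Where an arm had 1 library left, it was assumed to vary like the other groups.

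With the replicate number as a block, the replicate block gave 1 gene for mutants against wildtype animals at 20°C (2 without it, *cpr-1* being the other, at -2.73 and adjusted p = 0.0842 by edgeR with the block), 12 for rescued against wildtype animals at 20°C, 1 for mutants against wildtype animals at 37°C and 11 for the difference between rescued and wildtype animals. In no comparison was the correlation of deviations over 0.1 in every pair of same-numbered libraries. Its range was above 0 for heat in mutants (0.0203 to 0.501), heat in wildtype animals (0.00423 to 0.434) and mutants against wildtype animals at 20°C (0.0153 to 0.484), and in the 6 other comparisons at least 1 pair was below 0, as for heat in rescued animals (-0.248 to 0.447).

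Scaling by library size only shifted the median log2 fold change of all genes by 0.23 for rescued against wildtype animals and 0.18 for rescued animals against mutants at 37°C, by -0.15 for heat in mutants, by -0.11 for heat in wildtype animals and by 0.13 for rescued against wildtype animals at 20°C. At 37°C the median of the pump genes in rescued animals, 0.45 against mutants and 0.55 against wildtype animals, is to be read beside these shifts.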
